A study of Homo sapiens with 15 samples.

Results

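The genes described here are ALOX15B and 9 other genes of eicosanoid metabolism and signalling, chosen by gene symbol from the deposited expression table. All 10 symbols were found among the 33158 genes of the table. They are the phospholipase gene PLA2G4A, the cyclooxygenase genes PTGS1 and PTGS2, the prostaglandin E synthase gene PTGES, the receptor genes PTGER2 and PTGER4, the breakdown enzyme gene HPGD and the lipoxygenase genes ALOX15B, ALOX15 and ALOX5. The study sorted SUM149PT and HCC1937, a pair of established triple negative breast cancer cell lines, into cancer stem cells (CSCs) and the remaining cells (non-CSCs) by the surface markers CD44 and CD24. RNA was sequenced in 3 libraries each of SUM149PT CSCs, SUM149PT non-CSCs, HCC1937 CSCs, HCC1937 non-CSCs and SUM159PT, 15 libraries in all. SUM159PT, a further established triple negative line, is labelled as cancer stem cells but was sequenced without sorting. No group carries a treatment or an engineered change, and each group comes from a single line. Levels are FPKM, sequenced fragments scaled to transcript length and to the number of mapped fragments.

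Eicosanoids are signalling lipids made from arachidonic acid, which cytosolic phospholipase A2 (PLA2G4A) releases from membrane phospholipids. Cyclooxygenases turn arachidonic acid into prostaglandin H2, from which prostaglandin E synthase makes prostaglandin E2, a ligand of the cAMP-raising receptors EP2 (PTGER2) and EP4 (PTGER4), while 15-hydroxyprostaglandin dehydrogenase (HPGD) inactivates it. Lipoxygenases instead add oxygen to arachidonic acid and start the routes to hydroxy fatty acids and leukotrienes, and cyclooxygenase 2 (PTGS2) is known as an inducible enzyme found in many carcinomas.

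The depth of the libraries is not given with FPKM. Ratios of values below 0.05 FPKM put the depth of the other 11 sorted libraries at 0.852 to 1.08 times that of the first SUM149PT CSC library, although only 6.87% to 26.6% of the low genes compared lay at the shared ratio, and the absolute depth is unknown. FPKM summed over all genes to between 291276 and 366532 in the sorted libraries and to between 634746 and 652082 in SUM159PT, so levels in SUM159PT are given as a description only. A gene listed at 0 FPKM may be a failed estimate, and no fold is given against a group at 0.

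Within SUM149PT and within HCC1937, CSCs were set against non-CSCs. A gene was tested where its mean was at least 0.1 FPKM over the libraries compared, and called where the adjusted p was 0.05 or less. ALOX15, ALOX5 and HPGD were below this minimum in both lines, and the other 7 genes were tested. In SUM149PT, 6 of them were lower in CSCs (PLA2G4A, PTGS1, PTGS2, PTGES, PTGER2 and ALOX15B) and 1 was higher (PTGER4). In this line limma called 74.8% of all genes tested, 33.3% as higher and 41.5% as lower, so a call was the common outcome for any gene. The calls of all genes were 5345 higher and 6648 lower, but 6598 higher and 5533 lower after quantile normalization. At stricter cutoffs, adjusted p of 0.0001 and a change of 1 on the log2 scale in either direction, all 7 passed against 20.5% of all genes tested. This count includes ALOX15B, which passed the minimum only through its non-CSC libraries and stays under the size cutoff with a pseudocount of 1 (−0.78). In HCC1937, 5 of the 7 were lower in CSCs (PLA2G4A, PTGS1, PTGS2, PTGES and ALOX15B) and 2 were higher (PTGER2 and PTGER4), against 25.6% of all genes called, 10.3% higher and 15.3% lower. At the stricter cutoffs limma called 0 genes in HCC1937, none of the 7 included, while 5886 of 15582 genes were at an unadjusted p of 0.05 or less. The calls of all genes in HCC1937 were 1607 higher and 2378 lower, but 2368 higher and 2121 lower after quantile normalization and 2239 higher and 1755 lower after rescaling to TPM. The study listed ALOX15B and PTGS2 from these same libraries, and PTGS1, PTGES and PTGER2 for HCC1937, so these counts are not independent evidence of a direction. The bulk RNA of a sorted fraction cannot tell fewer expressing cells apart from less RNA per cell.

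**Figure D1:**
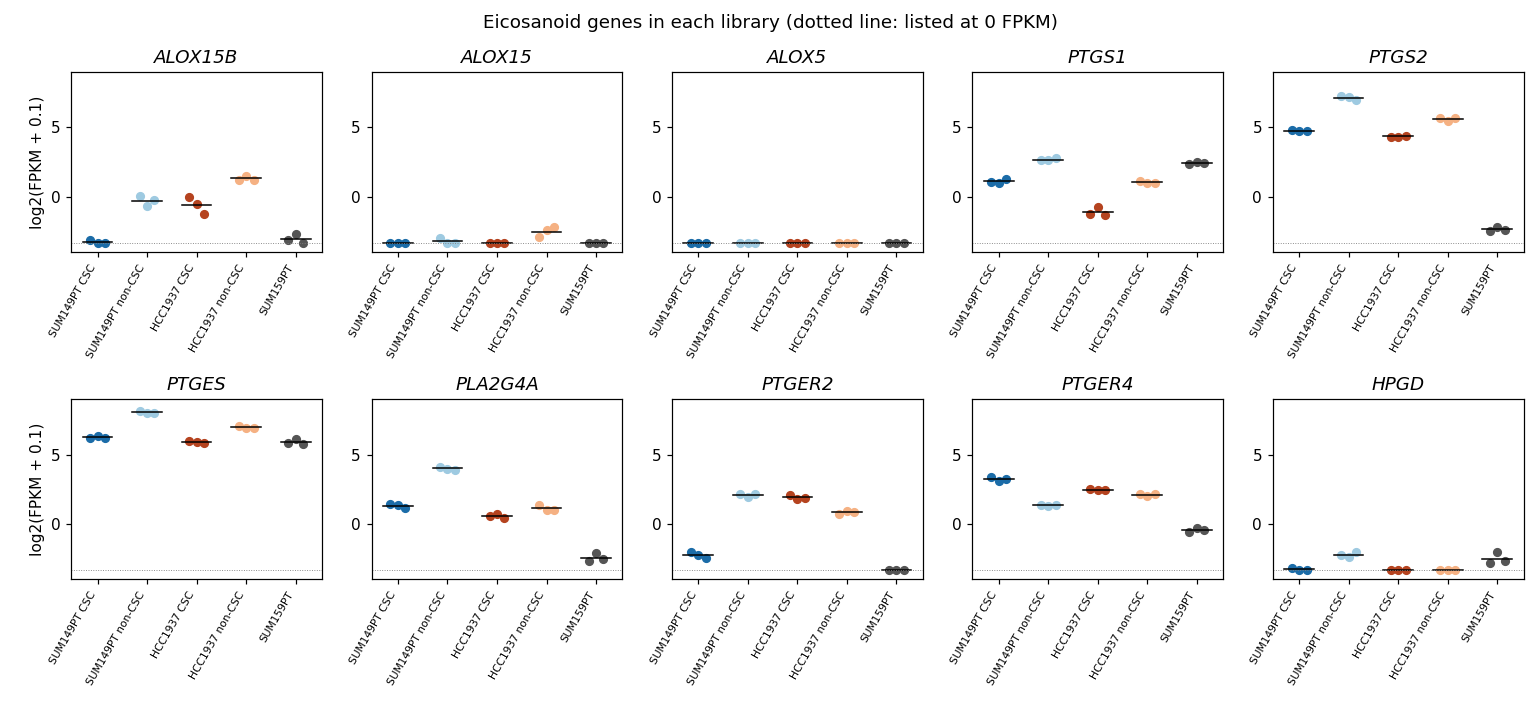
Level of each of the 10 genes in every library, as log2(FPKM + 0.1), in SUM149PT CSCs and non-CSCs, HCC1937 CSCs and non-CSCs, and SUM159PT; points are libraries, black bars are means over 3 libraries, and the dotted line marks genes listed at 0. PTGES lies above 53 FPKM in all 15 libraries, and ALOX5 lies on the dotted line in all of them.

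The sort itself was visible in CD24, at 7.74 ± 0.198 FPKM in SUM149PT CSCs and 139 ± 6.53 in SUM149PT non-CSCs (SD, n = 3), and at 23.3 ± 0.747 and 150 ± 14.3 FPKM in the HCC1937 fractions. CD44 was at 84.4 ± 2.08 and 64.5 ± 2.86 FPKM in SUM149PT and at 106 ± 6.33 and 97.8 ± 3.98 in HCC1937, CSCs first, while SUM159PT held 28.8 ± 0.542 FPKM of CD44 and 0.729 ± 0.0410 of CD24. Epithelial markers moved with the fractions. All 7 markers on that list (EPCAM, CDH1, KRT5, KRT8, KRT14, KRT18 and KRT19) were in the table. They summed to 129, 134 and 131 FPKM in the SUM149PT CSC libraries and to 1825, 1782 and 1805 in the non-CSC libraries, with KRT19 the most abundant in both. In HCC1937 they summed to 635, 588 and 532 FPKM in CSCs, led by KRT8, and to 1617, 1639 and 1403 in non-CSCs, led by KRT18. None of these 7 was listed at 0 throughout a group. The part of the epithelial difference in the results on eicosanoid genes was not tested.

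Arachidonic acid supply. PLA2G4A was listed at 2.62, 2.40 and 2.06 FPKM in SUM149PT CSCs and at 17.2, 15.5 and 15 in SUM149PT non-CSCs. In HCC1937 it was at 1.35, 1.52 and 1.22 FPKM in CSCs and at 2.43, 1.91 and 1.88 in non-CSCs. The CSC libraries lay below the non-CSC libraries in both lines, with a wide gap in SUM149PT and a narrow gap in HCC1937. The log2 change in limma, on the log2(FPKM + 0.1) scale used for every change here, was −2.71 (standard error, SE, 0.11, adjusted p = 8.54e-06) in SUM149PT and −0.57 (SE 0.13, adjusted p = 0.0296) in HCC1937. This scale understates the change of genes at low levels, and the p-values measure only the spread between these libraries, which nothing in the labels ties to separate cultures. The HCC1937 call did not hold in limma fits without CSC library 1 (adjusted p = 0.0737), CSC library 3 (0.0837) or non-CSC library 1 (0.0639), 2 (0.0622) or 3 (0.0511), and it held without CSC library 2 (0.0445). It was also over the limit after quantile normalization (limma adjusted p = 0.0526) and TPM rescaling (0.0664), and a pseudocount of 1 gave a log2 fold change of −0.38.

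PLA2G4A and PTGS2, which act in succession, are neighbours on chromosome 1. In GENCODE release 29 (GRCh38), PTGS2 runs on the reverse strand at chr1:186671791-186680427 and PLA2G4A on the forward strand at chr1:186828953-186988981, with 148525 bases between them. RefSeq promoter entries (GRCh38.p14) were matched for 7 of the 10 genes, all but ALOX15B, ALOX15 and ALOX5. The windows from 250 to 11 bases before the RefSeq start of PTGS2 and PLA2G4A are printed because these neighbours were both lower in CSCs of both lines, and that of PTGER2 because its direction differed between lines. PTGS1 and PTGES were also lower in both lines, and their windows are not printed. They are chr1:186680434-186680673 on the reverse strand for PTGS2, chr1:186828699-186828938 on the forward strand for PLA2G4A and chr14:52314062-52314301 on the forward strand for PTGER2, and none overlaps an annotated exon. Capitals mark matches, on either strand, to a TATA box of 6 bases, a GC box of 6, the 5-base core of a cAMP response element (CRE), an AP-1 pattern of 7 and an NF-kB pattern of 10.
PTGS2: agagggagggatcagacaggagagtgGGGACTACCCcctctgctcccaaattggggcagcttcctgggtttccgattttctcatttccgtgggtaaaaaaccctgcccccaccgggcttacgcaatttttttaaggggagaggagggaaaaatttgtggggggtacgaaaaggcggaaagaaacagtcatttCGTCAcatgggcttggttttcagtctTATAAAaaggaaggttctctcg
PLA2G4A: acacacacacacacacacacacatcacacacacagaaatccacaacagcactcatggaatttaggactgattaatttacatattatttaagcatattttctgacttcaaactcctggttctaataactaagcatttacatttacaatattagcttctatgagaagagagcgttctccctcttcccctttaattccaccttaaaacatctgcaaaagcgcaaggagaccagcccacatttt
PTGER2: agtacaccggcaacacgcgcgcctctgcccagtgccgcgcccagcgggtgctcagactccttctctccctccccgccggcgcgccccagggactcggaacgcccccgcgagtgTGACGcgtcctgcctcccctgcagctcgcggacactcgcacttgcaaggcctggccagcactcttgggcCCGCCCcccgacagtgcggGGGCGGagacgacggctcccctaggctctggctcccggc

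The PTGS2 window held the TATA box from 32 to 27 bases before the start, the CRE core on the opposite strand from 58 to 54 and the NF-kB pattern from 224 to 215. The PTGER2 window held the CRE core from 137 to 133 bases before the start and the GC box at 68 to 63 (opposite strand) and 49 to 44. The windows of PTGS1 held the GC box and the NF-kB pattern, and that of PTGES held the GC box at 2 places. The letters of the TATA box also occurred for PTGS1, but only on the opposite strand, from 208 to 203 bases before the start. That of PTGER4 held the GC box and the NF-kB pattern, each at several places. The windows of HPGD held the GC box, the NF-kB pattern and the CRE core. Those of PTGER4 and HPGD overlap an annotated exon. The PLA2G4A window held none of the 5 patterns, and no match overlapped another in the printed windows. Among windows of the same length from 35116 promoters, 10.6% held the TATA box, 41.4% the GC box, 20.5% the CRE core, 6.43% the AP-1 pattern and 21.6% the NF-kB pattern. A match is a description of letters, and no binding was measured.

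Cyclooxygenases. PTGS2 was listed at 27.9, 26.4 and 26.6 FPKM in SUM149PT CSCs and at 153, 146 and 127 in SUM149PT non-CSCs. The HCC1937 values were 19.9, 19.9 and 20.7 FPKM in CSCs and 51.3, 44.4 and 50.2 in non-CSCs. SUM149PT non-CSCs stood highest, the fractions of neither line overlapped, and the mean in non-CSCs was 5.27 times that in CSCs in SUM149PT and 2.41 times in HCC1937. By limma the log2 change was −2.39 (SE 0.087, adjusted p = 6.54e-06) in SUM149PT and −1.26 (SE 0.081, adjusted p = 0.000431) in HCC1937. SUM159PT held only 0.0774, 0.116 and 0.0889 FPKM of PTGS2, far below every sorted library.

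PTGS1 encodes the constitutive cyclooxygenase. It was listed at 2.00, 1.86 and 2.34 FPKM in SUM149PT CSCs and at 6.25, 5.99 and 6.63 in SUM149PT non-CSCs. In HCC1937 it was at 0.319, 0.505 and 0.292 FPKM in CSCs and at 2.12, 1.87 and 1.91 in non-CSCs. CSCs were lower without overlap in both lines, and HCC1937 CSCs lay below all other groups. By limma the log2 change was −1.57 (SE 0.098, adjusted p = 4.05e-05) in SUM149PT and −2.16 (SE 0.18, adjusted p = 0.000865) in HCC1937, the latter −1.12 with a pseudocount of 1. In SUM159PT, PTGS1 was at 5.01, 5.64 and 5.33 FPKM, so PTGS1 was there the more abundant cyclooxygenase gene, with a PTGS2 to PTGS1 ratio of FPKM of 0.0175 ± 0.00264 (SD, n = 3). In the sorted groups that ratio was 13.2 ± 1.58 in SUM149PT CSCs, 22.7 ± 3.11 in SUM149PT non-CSCs, 57.6 ± 16.4 in HCC1937 CSCs and 24.7 ± 1.36 in HCC1937 non-CSCs. Thus the ratio was lower in CSCs than in non-CSCs in SUM149PT and higher in HCC1937, with no overlap of libraries in either line.

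Prostaglandin E synthase. PTGES was the most abundant of the 10 genes in every group. It was listed at 74.0, 80.8 and 73.4 FPKM in SUM149PT CSCs and at 276, 257 and 261 in SUM149PT non-CSCs. HCC1937 held 62.1, 59.3 and 57.5 FPKM in CSCs and 133, 121 and 120 in non-CSCs. The CSC libraries were lower without overlap in both lines, and those of HCC1937 lay, in FPKM, within the range of SUM159PT, which was at 55.6, 68.1 and 53.5 FPKM. By limma the log2 change was −1.80 (SE 0.066, adjusted p = 6.61e-06) in SUM149PT and −1.06 (SE 0.075, adjusted p = 0.000534) in HCC1937. In SUM149PT non-CSCs its mean of 264 FPKM ranked 150 from the top among 20048 genes above 0, and PTGS2 ranked 305.

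Prostaglandin E2 receptors. PTGER2 was listed at 0.139, 0.115 and 0.0797 FPKM in SUM149PT CSCs and at 4.45, 3.70 and 4.26 in SUM149PT non-CSCs. In HCC1937 it was at 4.22, 3.38 and 3.45 FPKM in CSCs and at 1.5, 1.82 and 1.71 in non-CSCs. The fractions thus had opposite order in the 2 lines, without overlap in either, and the libraries of SUM149PT non-CSCs and HCC1937 CSCs overlapped. By limma the log2 change was −4.33 (SE 0.13, adjusted p = 3.80e-06) in SUM149PT, −2.21 with a pseudocount of 1, and 1.09 (SE 0.12, adjusted p = 0.00212) in HCC1937. PTGER2 was listed at 0 in all 3 SUM159PT libraries.

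PTGER4 was listed at 10.3, 8.42 and 9.22 FPKM in SUM149PT CSCs and at 2.41, 2.35 and 2.49 in SUM149PT non-CSCs. The HCC1937 libraries held 5.59, 5.25 and 5.20 FPKM in CSCs and 4.33, 3.83 and 4.4 in non-CSCs. CSCs were higher in both lines without overlap, by 3.86 times in SUM149PT and 1.28 times in HCC1937 as a ratio of means. By limma the log2 change was 1.90 (SE 0.087, adjusted p = 1.33e-05) in SUM149PT and 0.35 (SE 0.082, adjusted p = 0.0289) in HCC1937. The HCC1937 call did not hold in a limma fit without any of the 6 libraries in turn: the adjusted p was 0.0701, 0.0769 and 0.0637 without CSC library 1, 2 and 3, and 0.0693, 0.0821 and 0.0504 without non-CSC library 1, 2 and 3. The ratio of PTGER4 to PTGER2 was 87.7 ± 24.3 in SUM149PT CSCs, 0.586 ± 0.0469 in SUM149PT non-CSCs, 1.46 ± 0.122 in HCC1937 CSCs and 2.52 ± 0.393 in HCC1937 non-CSCs (SD, n = 3). PTGER4 was therefore the more abundant receptor gene in each sorted group other than SUM149PT non-CSCs. SUM159PT held 0.565, 0.714 and 0.630 FPKM of PTGER4.

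**Figure D2:**
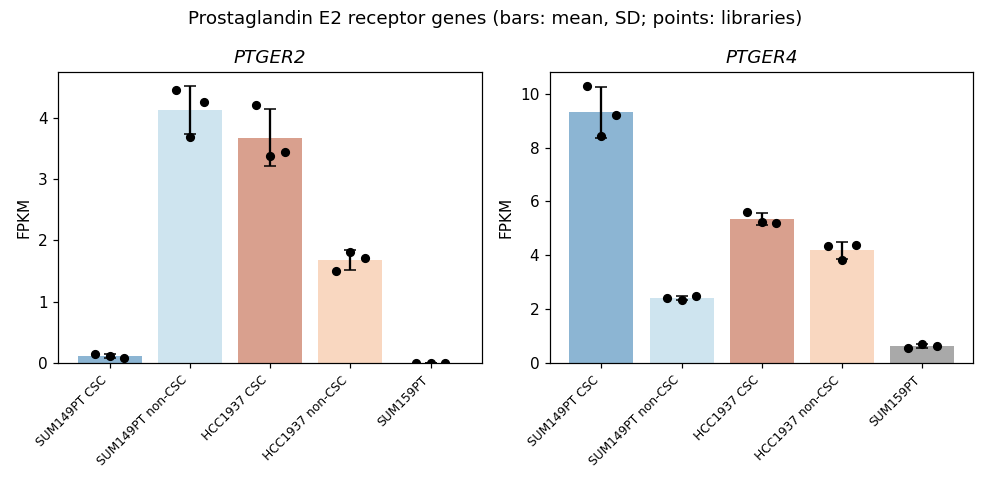
FPKM of PTGER2 (left) and PTGER4 (right) in the 5 groups; bars are means with SD over 3 libraries and points are libraries, with separate axes that start at 0. PTGER2 is lowest of the sorted groups in SUM149PT CSCs, at 0.111 FPKM, where PTGER4 is highest, at 9.31 FPKM.

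Prostaglandin breakdown. HPGD was listed at 0.0125, 0 and 0 FPKM in SUM149PT CSCs and at 0.113, 0.0896 and 0.142 in SUM149PT non-CSCs. It was listed at 0 in all 6 HCC1937 libraries, and at 0.0388, 0.144 and 0.0534 FPKM in SUM159PT. No library reached 0.15 FPKM, and the gene was not tested in either line.

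Lipoxygenases. ALOX15B, an arachidonate lipoxygenase of epithelia, was at 0.941, 0.513 and 0.735 FPKM in SUM149PT non-CSCs and was listed at 0 in 2 of the 3 CSC libraries. In HCC1937 it was at 0.857, 0.606 and 0.309 FPKM in CSCs and at 2.22, 2.69 and 2.25 in non-CSCs. CSCs were lower without overlap in both lines, and the libraries of HCC1937 CSCs overlapped those of SUM149PT non-CSCs. In SUM149PT the gene passed the minimum only through its non-CSC libraries, and the limma log2 change of −2.96 (SE 0.20, adjusted p = 5.36e-05) became −5.75 with a pseudocount of 0.01 and −0.78 with a pseudocount of 1. In HCC1937 the limma log2 change was −1.93 (SE 0.32, adjusted p = 0.00845), or −1.10 (0.000881) with a pseudocount of 1. SUM159PT held 0.0125, 0.0528 and 0 FPKM.

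ALOX15B lies on the forward strand at chr17:8039017-8049134 (GENCODE release 29, GRCh38). The study's PCR primers for this gene are printed because they show which part of the transcript its other assay reads.
Forward: ctacaggctggctctgcttt
Reverse: ggatcaggacagggttgaga
The forward primer crosses the junction of exons 4 and 5, at chr17:8042475-8042783 with the intron included, and the reverse primer lies in exon 6 at chr17:8044887-8044906, both in coding sequence. The pair gives a product of 199 bases on 4 of the 5 annotated transcripts of ALOX15B and matches no other annotated gene. No PCR values were used here.

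ALOX15, on the reverse strand of the same chromosome at chr17:4630902-4642294, was listed at 0.0325, 0.0852 and 0.115 FPKM in HCC1937 non-CSCs and at 0.0258, 0 and 0 in SUM149PT non-CSCs. It was listed at 0 in all CSC libraries and in SUM159PT. ALOX5, the first enzyme of leukotriene synthesis, was listed at 0 in all 15 libraries. Neither gene was tested.

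**Figure D3:**
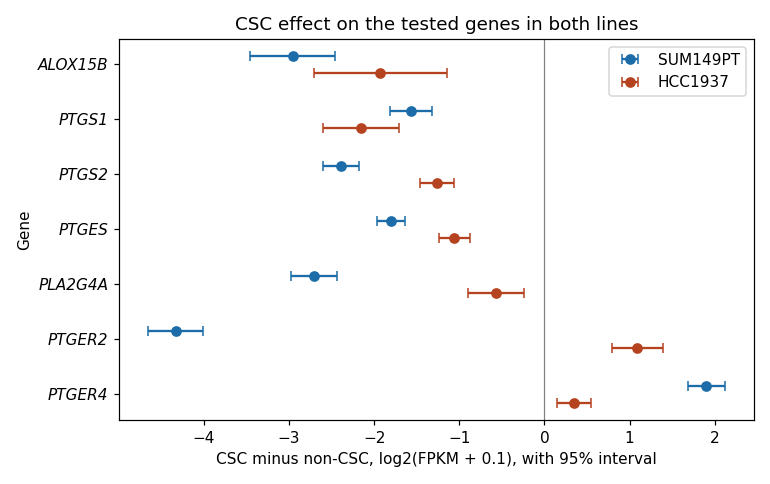
CSC minus non-CSC difference of the 7 tested genes in SUM149PT and HCC1937, on the log2(FPKM + 0.1) scale, with 95% confidence intervals from limma fits of 3 against 3 libraries. PTGER2 lies on opposite sides of 0 in the 2 lines (−4.33 and 1.09), and the other genes lie on the same side.

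An exact two-sided permutation test of FPKM gave p = 0.10 for each of the 7 tested genes in each line, the smallest value that 3 against 3 libraries allow. The CSC effect was then compared between lines as an interaction over the 12 sorted libraries, SUM149PT minus HCC1937. All 7 genes were called, 2 as higher and 5 as lower, against 61.1% of all genes tested, 28.1% higher and 33.0% lower. The calls of all genes were 4627 higher and 5426 lower, and 5344 and 4841 after quantile normalization. The difference was largest for PTGER2, at −5.42 on the log2 scale (limma adjusted p = 1.58e-08, −3.01 with a pseudocount of 1). It was −2.14 for PLA2G4A (limma adjusted p = 4.26e-06), −1.13 for PTGS2 (1.94e-05) and −0.74 for PTGES (7.62e-05), all of which had fallen further in SUM149PT. For PTGER4 it was 1.55 (limma adjusted p = 2.25e-06). The other 2 calls depended on the settings. For PTGS1 the difference was 0.59 (limma adjusted p = 0.0356), but −0.14 (0.293) with a pseudocount of 1. It was over the limit of 0.05 without SUM149PT CSC library 1 (0.0548) or 3 (0.0826), SUM149PT non-CSC library 1 (0.0630) or 2 (0.0721), HCC1937 CSC library 1 (0.0775) or 3 (0.0770) and HCC1937 non-CSC library 1 (0.0766) or 3 (0.0535), and after upper quartile scaling (0.0539) or TPM rescaling (0.0541). For ALOX15B the difference was −1.03 (limma adjusted p = 0.0463), but 0.32 (0.122) with a pseudocount of 1 and −3.65 with a pseudocount of 0.01. ALOX15B passed the minimum only through groups other than SUM149PT CSCs, where it averaged 0.00456 FPKM. Its limma adjusted p was over 0.05 without SUM149PT CSC library 1 (0.0612), 2 (0.0839) or 3 (0.0841), SUM149PT non-CSC library 1 (0.105) or 3 (0.0821), HCC1937 CSC library 1 (0.0903) or 2 (0.0885) and HCC1937 non-CSC library 1 (0.0871), 2 (0.0545) or 3 (0.0847). It was also over 0.05 after quantile normalization (0.0783) and with no minimum level (0.0599), while TPM rescaling gave a difference of −2.45 (limma adjusted p = 0.000899). The same pseudocount of 0.1 was added after that rescaling, where ALOX15B in SUM149PT non-CSCs averaged 2.32 TPM beside 0.730 FPKM. TPM rescaling therefore also made the pseudocount smaller beside the levels.

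The lines were also compared within each fraction. In CSCs, HCC1937 was higher than SUM149PT for ALOX15B and PTGER2 and lower for the other 5 tested genes, with 77.0% of all genes called, 45.3% higher and 31.7% lower. The all-gene calls there were 7457 higher and 5216 lower, but 6315 and 6228 with upper quartile scaling. The log2 difference in CSCs was 4.17 for PTGER2 (limma adjusted p = 9.60e-10), −2.22 for PTGS1 (2.92e-07), −0.79 for PTGER4 (8.92e-06), −0.75 for PLA2G4A (0.000289) and −0.42 for PTGS2 (0.000922). For ALOX15B it was 2.64 (limma adjusted p = 9.86e-06), or 0.65 with a pseudocount of 1, 5.38 with a pseudocount of 0.01 and 3.99 after TPM rescaling. ALOX15B averaged 0.00456 FPKM in SUM149PT CSCs, below the minimum, and passed it only through the other groups. With a pseudocount of 1 the values for PTGER2 and PTGS1 became 2.07 and −1.16, and with upper quartile scaling those for PTGS2 and PTGES moved from −0.42 to −0.66 and from −0.35 to −0.59 (PTGES −0.53 after quantile normalization). In non-CSCs, HCC1937 was higher for ALOX15B and PTGER4 and lower for the other 5, with 77.4% of all genes called, 41.7% higher and 35.7% lower. Here the all-gene calls were 6867 higher and 5866 lower, but 5666 and 6965 with upper quartile scaling and 5900 and 6462 after TPM rescaling. There the log2 difference was 1.61 for ALOX15B (limma adjusted p = 0.000414), 0.97 with a pseudocount of 1. It was −2.89 for PLA2G4A (limma adjusted p = 1.13e-08), −1.63 for PTGS1 (3.42e-06), −1.54 for PTGS2 (4.91e-08), −1.09 for PTGES (1.25e-07), −1.26 for PTGER2 (7.80e-06) and 0.77 for PTGER4 (1.11e-05). PTGER2 and PTGER4 thus both changed sign between the fractions, in opposite ways. These comparisons share libraries with those within the lines.

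By mean FPKM, SUM149PT non-CSCs stood highest of the 5 groups for PTGS1, PTGS2, PTGES, PLA2G4A, PTGER2 and HPGD, HCC1937 non-CSCs for ALOX15B and ALOX15, and SUM149PT CSCs for PTGER4. Neighbouring groups overlapped for PLA2G4A (SUM149PT CSCs and HCC1937 non-CSCs) and for PTGS1 (the same 2 groups). Both overlaps were absent with upper quartile scaling and present after TPM rescaling. At the top place, SUM149PT non-CSCs overlapped HCC1937 CSCs for PTGER2 and SUM159PT for HPGD, whose highest single library was one of SUM159PT. No neighbours overlapped for PTGS2 or PTGER4. The PTGER2 overlap was absent with upper quartile scaling and with TPM rescaling. TPM rescaling also removed the HPGD overlap, and moved the ratio of means there from 1.46 to 3.00. Upper quartile scaling placed SUM159PT above SUM149PT non-CSCs for PTGS1, with overlap, and above HCC1937 CSCs for PTGES. TPM rescaling placed SUM159PT below both without overlap, with SUM149PT non-CSCs 2.44 times above it for PTGS1 and HCC1937 CSCs 2.03 times above it for PTGES, so these places depend on the scaling. In SUM159PT, where the study ranked genes by level, 96.7% of all 33158 genes lay below PTGES, 84.9% below PTGS1, 59.0% below PTGS2 and 52.4% below ALOX15B. Among the 18012 genes above 0 in SUM159PT these shares were 94.0%, 72.2%, 24.6% and 12.4%.

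The wider pathway was described by 66 other genes on 7 lists, all found in the table. In SUM149PT 46 were tested, of which 5 were higher and 30 lower in CSCs, with a median log2 fold change of −0.98 beside −0.11 for all genes. The share called, 76.1%, was close to the 74.8% of all genes, of which 33.3% were higher and 41.5% lower. Of the 46, 9 were below 0.1 FPKM in one fraction and passed the minimum only through the other, with 1 called higher (TBXAS1) and 7 lower (LTC4S, OXER1, CYP4F2, PTGIS, ALOX12B, PLA2G2F and PLA2G4E). Among the remaining 37, 4 were higher and 23 lower, with a median of −0.78. In HCC1937 47 were tested, of which 11 were higher and 15 lower, with a median of −0.17 beside −0.032. The share called was 55.3%, beside 25.6% of all genes, 10.3% higher and 15.3% lower, and 2 of the 47 (TBXAS1 and PLA2G2F) passed only through one fraction. By list, the calls in SUM149PT were 1 higher and 7 lower of 8 tested phospholipase A2 genes, 1 higher and 3 lower of 6 prostanoid synthases, 1 higher and 6 lower of 8 lipoxygenase and leukotriene enzymes, and 1 higher and 3 lower of 7 further receptors. The other lists there gave 0 higher and 1 lower of 4 transport and breakdown genes, 1 higher and 4 lower of 6 on the epoxygenase and epoxide hydrolase list, and 0 higher and 6 lower of 7 arachidonate supply genes. In HCC1937 they were, in the same order, 1 higher and 5 lower of 9, 2 higher and 1 lower of 7, 0 higher and 4 lower of 8, 3 higher and 0 lower of 7, 1 higher and 1 lower of 5, 0 higher and 3 lower of 4, and 4 higher and 1 lower of 7.

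Of these genes, 8 were called in both lines with a log2 change of 1 or more in size, 19.0% of the 42 tested in both, beside 871 of 14423 genes (6.04%) overall. The lists were chosen with earlier results of these libraries known, so these shares are not independent evidence. TBXAS1 and PLA2G2F in both lines, and PLA2G4E and ALOX12B in SUM149PT, are among those that passed the minimum only through one fraction. TBXAS1, which encodes thromboxane synthase, was higher in CSCs, at 0.533, 0.350 and 0.262 FPKM against 0.0663, 0.0472 and 0.0697 in SUM149PT and at 0.15, 0.314 and 0.181 against 0.0163, 0.0145 and 0.0263 in HCC1937. The other 7 were lower in CSCs: the phospholipase genes PLA2G4E and PLA2G2F, the epidermal lipoxygenase genes ALOX12B and ALOXE3, the glutathione transferase gene MGST2, which can form leukotriene C4, and the fatty acid hydroxylase genes CYP4F3 and CYP4F11. CYP4F3 inactivates leukotriene B4 and is not an epoxygenase, although it stands on that list. It was at 0.182, 0.0354 and 0.208 FPKM in SUM149PT CSCs against 4.50, 4.28 and 4.65 in non-CSCs, and at 0.472, 0.423 and 0.601 against 1.70, 1.87 and 2.08 in HCC1937. MGST2 was the most abundant of these 7, at 2.48 ± 0.652 FPKM in SUM149PT CSCs, 13.6 ± 1.74 in SUM149PT non-CSCs, 4.76 ± 0.368 in HCC1937 CSCs and 12 ± 1.66 in HCC1937 non-CSCs (SD, n = 3).

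Among the other pathway genes at 1 FPKM or more in a fraction, the largest changes in SUM149PT were in PLA2G2A, CYP4F3 and FADS2. PLA2G2A, a secreted phospholipase gene, was at 0.75, 1.47 and 1.48 FPKM in CSCs and at 50.1, 45.2 and 41.8 in non-CSCs (limma log2 change −5.16, adjusted p = 1.88e-05), and it was below 0.04 FPKM in every HCC1937 library. FADS2, the desaturase that starts arachidonic acid synthesis from linoleic acid, was at 4.82, 5.30 and 5.74 FPKM in SUM149PT CSCs and at 91.7, 98.0 and 90.2 in non-CSCs. HCC1937 held 12.7, 14.1 and 13.4 FPKM in CSCs and 7.42, 6.97 and 8.0 in non-CSCs. FADS2 was therefore lower in CSCs of SUM149PT (limma log2 change −4.12, adjusted p = 1.78e-06) and higher in those of HCC1937 (0.84, adjusted p = 0.00152), the same pair of directions as PTGER2. Among the same pathway genes the largest changes in HCC1937 were in PLA2G2F (−2.99), PLA2G4F (−2.72) and PLA2G4E (−2.59). PLA2G2F averaged 0.0940 FPKM in HCC1937 CSCs, below the minimum of 0.1, against 1.36 in non-CSCs. PLA2G4F was near that minimum in HCC1937 CSCs, at 0.0487, 0.188 and 0.0918 FPKM against 1.33, 1.15 and 1.21 in non-CSCs. In that line PLA2G4E was at 0.645, 0.630 and 0.408 FPKM in CSCs against 3.73, 3.84 and 3.86 in non-CSCs.

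**Figure D4:**
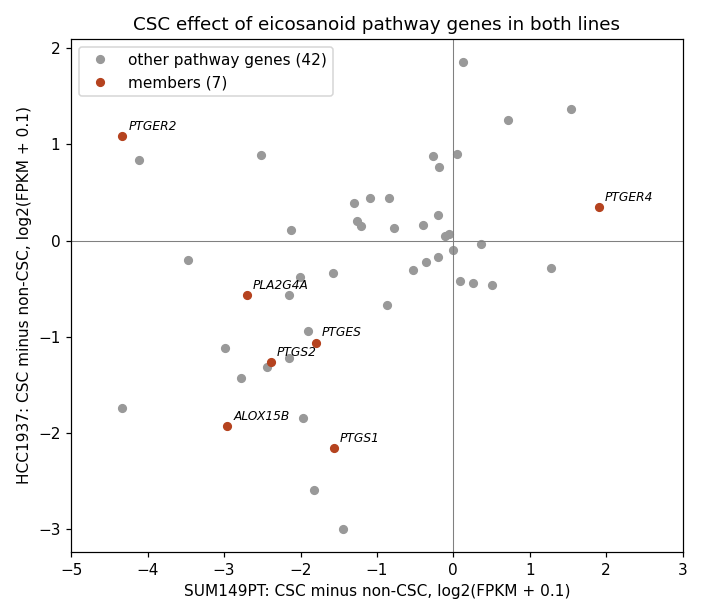
CSC minus non-CSC difference on the log2(FPKM + 0.1) scale in SUM149PT (horizontal) and HCC1937 (vertical), for the 7 tested genes described here (red, named, "members" in the key) and the 42 other pathway genes tested in both lines (grey). PTGER2 stands at upper left, at −4.33 and 1.09, with FADS2 beside it at −4.12 and 0.84.

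Over the 15 libraries, the genes whose log2(FPKM + 0.1) was most like that of ALOX15B were C16orf74 (Pearson r = 0.987), GRB7 (0.983), VILL (0.980), SERPINA5 (0.974) and SLC23A1 (0.974), of 16373 genes compared. Those most like PTGS2 were ATL2 (0.997), MBOAT2 (0.997), ZNF468 (0.996), INHBA (0.996) and ELF1 (0.996). The libraries fall into 5 groups, so these values describe mainly the group means. INHBA, a subunit gene of activin A singled out from these after its values were seen, was at 5.28, 27.6, 4.50, 7.93 and 0.0296 FPKM on average in SUM149PT CSCs, SUM149PT non-CSCs, HCC1937 CSCs, HCC1937 non-CSCs and SUM159PT.

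Several eicosanoid genes are also used by blood and stromal cells, so markers of those cells were read in the same libraries. Of 10 leukocyte markers, CD3E, MS4A1 and SIGLEC8 were listed at 0 in all 15 libraries, and PTPRC, which encodes CD45, did not exceed 0.0986 FPKM. LYZ was listed at 0 in SUM149PT CSCs and SUM159PT, and CCR3 in every group but SUM149PT non-CSCs. CD68 or CD14 was the most abundant in each group, and these were the only 2 leukocyte markers with a group mean of 1 FPKM or more. The leukocyte list summed to 19.2, 19.3 and 18.2 FPKM in SUM149PT CSCs, to 101, 95.8 and 103 in SUM149PT non-CSCs, to 108, 107 and 94.0 in HCC1937 CSCs, to 71.5, 73.4 and 68.2 in HCC1937 non-CSCs and to 50.2, 54.0 and 47.8 in SUM159PT. These sums, carried by CD14 and CD68, had the same order of fractions as PTGER2 in each line, while ITGAM had the other order of means in both, at 0.0489 FPKM in CSCs against 0.040 in non-CSCs of SUM149PT and 0.486 against 0.723 in HCC1937, with overlapping libraries. In SUM149PT CD68 averaged 16.2 FPKM in CSCs against 48.3 in non-CSCs, and in HCC1937 42.3 against 40.0, where limma did not call it (adjusted p = 0.468). CD14, singled out after its values were seen, was at 2.66 ± 0.435 FPKM in SUM149PT CSCs, 51.3 ± 2.35 in SUM149PT non-CSCs, 60.3 ± 6.0 in HCC1937 CSCs and 30.3 ± 2.25 in HCC1937 non-CSCs (SD, n = 3). The part of these markers in the PTGER2 result was not tested.

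The 4 mast cell markers (TPSAB1, CPA3, KIT and MS4A2) summed to at most 0.164 FPKM in any library, and MS4A2 was listed at 0 in all groups. The 6 fibroblast markers were led by COL1A1 in every group and summed to 237, 240 and 234 FPKM in SUM149PT CSCs, 67.0, 68.4 and 70.4 in SUM149PT non-CSCs, 12.5, 12.8 and 11.8 in HCC1937 CSCs, 6.12, 7.29 and 7.84 in HCC1937 non-CSCs and 41.1, 46.3 and 44.1 in SUM159PT, with DCN listed at 0 in HCC1937 non-CSCs. The sums, led by COL1A1, were higher in CSCs of both lines, as PTGER4 was, but DCN and LUM were lower in CSCs of SUM149PT, at 1.80 against 16.2 and at 0.165 against 0.391 FPKM on average. The part of these markers in the PTGER4 result was not tested. The 3 endothelial markers summed to at most 1.83 FPKM, led by VWF in SUM149PT non-CSCs and PECAM1 elsewhere, with CDH5 listed at 0 in SUM159PT. The sums were 0.171, 0.162 and 0.157 FPKM in SUM149PT CSCs and 1.59, 1.83 and 1.71 in non-CSCs. In HCC1937 they were 0.773, 0.695 and 0.660 FPKM in CSCs and 0.968, 0.797 and 0.871 in non-CSCs. PECAM1 had the other order of means in HCC1937, at 0.606 FPKM in CSCs against 0.496. The part of these markers in the results on eicosanoid genes was not tested. The 5 sebaceous or apocrine markers summed to at most 0.569 FPKM, with AWAT1 and SCGB2A2 listed at 0 in all groups.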

How the data were processed

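The authors deposited FPKM values of 33158 genes, made from mRNA libraries. The submitters' processing notes name Bowtie2 and GRCh38, and the quantification tool and annotation are not given in the sources used here. All 15 sample columns were matched to a library by name. The fits took log2(FPKM + 0.1) into lmFit and eBayes of limma 3.58.1 (R 4.3.3) at default settings. Genes whose mean reached 0.1 FPKM were tested, over the 6 libraries of a line, or over the 12 sorted libraries for the interaction and for the lines within a fraction. Benjamini-Hochberg adjustment ran over all genes tested. The fits were tested on simulated data, where the fewest changes were recovered for the interaction, which has less power. The recovery first required was not met for the interaction. That bar was lowered without a reason, and was replaced after the fits to the real data were seen by checks of sign, error, false calls, interval coverage and recovery among genes of small spread. Single genes were compared by an exact permutation test. SUM159PT was tested against no other group and was set beside the others by level only. Among the fits its libraries entered only the alternative single fit of 15 libraries.

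The genes named are the 10 by symbol, the pathway genes called in both lines with a log2 change of 1 or more in size, in each line the 3 pathway genes with the largest change and 1 FPKM or more in a fraction, and the 5 genes most like ALOX15B and PTGS2. Genes beyond this include those of the marker lists and pathway genes that passed the minimum only through a single fraction. Any others are said to have been singled out after their values were seen. The 10 genes, the pathway lists and the marker lists (sort, epithelial, leukocyte, mast cell, fibroblast, endothelial, sebaceous or apocrine) were chosen with earlier results of these data known.

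Alternatives were a pseudocount of 0.01 or 1, no minimum or 1 FPKM, scaling by upper quartile, quantiles or TPM, a trended prior in eBayes, a single fit of 15 libraries, replicate number as a block, stricter cutoffs (adjusted p of 0.0001 and a log2 change of 1, after the filter in the study, whose enrichment score was read here as a log2 change), each library left out, and the genes ranked in SUM159PT. The pseudocount of 0.1 was added after TPM rescaling too, to values larger than the FPKM. Gene positions came from GENCODE release 29 and promoter windows from RefSeq. Other software was Python 3.11.15 with pandas 2.3.3, matplotlib 3.10.9, numpy 2.4.6 and scipy 1.17.1. Precision rests on 3 libraries per group, since no read counts were used.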

Additional observations from a re-analysis of the deposited data

Results flagged for a closer look

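For all 7 genes tested, limma's interaction over 12 libraries called a difference between the 2 lines in how CSCs and non-CSCs compare, and 2 of these calls depended on the settings. The effect in SUM149PT minus that in HCC1937, on the log2 scale, was −5.42 for PTGER2, −2.14 for PLA2G4A, −1.13 for PTGS2, −1.03 for ALOX15B, −0.74 for PTGES, 0.59 for PTGS1 and 1.55 for PTGER4. Of these, PTGER2 had opposite directions in the lines, while the values of ALOX15B and PTGS1 changed sign with a pseudocount of 1 and lost the call in 10 and 8 of the 12 fits that left out a library. Since 61.1% of all genes tested were called in this comparison, such a difference was common in these libraries.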

How the results depend on the processing

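In SUM149PT, 111 of 111 alternative values of the tested genes kept their direction and their call. In HCC1937, 97 of 112 did and 15 kept the direction but lost the call, all of PLA2G4A or PTGER4. For the difference between lines, 128 of 153 did, 23 lost the call and 2 reversed, both with a pseudocount of 1: ALOX15B to 0.32 and PTGS1 to −0.14. The cause was not tested. Both comparisons between lines kept all 153 values, but leaving out a library of the other fraction cannot move these estimates. With the stricter cutoffs (adjusted p of 0.0001), all genes called fell to 3292 in SUM149PT and to 0 in HCC1937, and the genes described here to 0 in HCC1937, where the lowest adjusted p of limma was 0.000128 (unadjusted p of 0.05 or less: 5886 genes). A minimum of 1 FPKM gave no value for ALOX15B in SUM149PT or between lines. The labels number the libraries alike in each group, and do not state whether the same number means a shared sort. As deviations from the group mean, same-numbered CSC and non-CSC libraries correlated at 0.0880, 0.0226 and 0.0800 in SUM149PT. In HCC1937 they correlated at −0.0777, −0.0352 and −0.00886. Such values from 3 libraries per group cannot decide whether the numbers pair the libraries. CSC libraries 1 and 3 of SUM149PT correlated best with their own number, and CSC library 2 and all CSC libraries of HCC1937 did not. With the replicate block, calls of all genes were 11492 in SUM149PT, 3066 in HCC1937, 9648 for the difference, and 12558 and 12633 between lines in CSCs and non-CSCs, where the block was redefined after a first version, nested in line, had been run and seen. Calls among the tested genes were 7, 5, 6, 7 and 7, without PLA2G4A (adjusted p = 0.0610) and PTGER4 (0.0636) in HCC1937 and PTGS1 (0.0545) in the difference. Scaling moved the median log2 fold change of all genes from −0.11 to 0.093 in SUM149PT (quantile), from −0.032 to 0.090 in HCC1937 (TPM), from −0.079 to 0.048 for the difference (quantile), from 0.23 to 0.013 between lines in CSCs and from 0.097 to −0.12 in non-CSCs (upper quartile). No tested gene changed direction under these scalings. Each group holds 3 libraries of 1 line, and the absolute depth is unknown.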

Other observations

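Among the 6 arachidonate supply genes other than FADS2, described after their values were seen, 3 had its directions, called lower in CSCs of SUM149PT and higher in those of HCC1937. Of all 14423 genes tested in both lines 422 (2.93%) had this pair of calls, and of the 42 other pathway genes 5 had it, FADS2 and these 3 included. The log2 change in limma was −2.52 in SUM149PT and 0.89 in HCC1937 for FADS1, −1.31 and 0.39 for ELOVL5, and −0.26 and 0.88 for ACSL4. LPCAT3 was at −2.13 in SUM149PT and 0.11 in HCC1937, where it was not called (limma adjusted p = 0.276), and ACSL3 was lower in both, at −2.00 and −0.37. MBOAT7 was at 0.36 and −0.035, called in neither. TBXAS1, higher in CSCs of both sorted lines, was most abundant in SUM159PT, at 2.94, 2.89 and 3.35 FPKM.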
